A study of Mus musculus with 12 samples.

Results

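The response to LPS plus IFN-gamma was examined in RAW264.7 cells, a mouse macrophage line, in clones from which a region called NRE1 was deleted by CRISPR (KO). The 6 libraries of KO clones 1A, 1B and 2, of 12 in the series, were taken by their labels: 1 library per clone kept in medium and 1 per clone stimulated for 6 h with 10 ng/mL LPS and 50 ng/mL IFN-gamma together. Each stimulated library was set against the medium library of the same clone. The other 6 libraries came from 3 wild-type (WT) clones under the same conditions and entered the fit to share the estimate of the spread of responses. The KO cells were transfected with a pair of CRISPR constructs flanking NRE1, selected by GFP and puromycin markers and grown from single cells, so each KO clone is the progeny of 1 cell of a cell line. The same protocol text is attached to the WT libraries, and it does not say whether WT clones received the constructs. What NRE1 stands for is not spelled out, and no gene in the table bears the name, so the deletion could not be read in the counts. The labels do not say how 1A and 1B are related. If both stem from 1 clone, the KO response rests on 2 independent clones, so counts are also given with 1A and 1B summed into 1 where summing moved them by more than 1.5 times.

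LPS, a bacterial cell wall component, is sensed by Toll-like receptor 4 with its co-receptor CD14. Adaptors of the receptor then release NF-kB from its IkB inhibitors and start interferon production. IFN-gamma, a lymphocyte cytokine, acts through JAK kinases on genes with GAS elements, and type I interferon on genes with ISRE elements. Given together, the stimuli drive macrophages to a classically activated state that makes nitric oxide, itaconate, prostaglandins and inflammatory cytokines.

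The KO libraries held 10624591 to 12724929 counts, and the whole series 10624591 to 14388590. The mitochondrial share of counts was 2.01%, 2.53% and 1.304% in the medium libraries of KO 1A, 1B and 2 and 1.42%, 1.94% and 1.24% in the stimulated ones, lower in each clone, and it was also lower in each WT clone. Its part in the results was not tested. All 10 macrophage markers on the list used for a check of cell identity were measured, but Mertk was near background in medium. It had 2 counts over the KO medium libraries together and 77 over the KO stimulated ones. None of 9 neutrophil, 8 fibroblast and 6 epithelial markers was in the table. Clone 2 stood apart from the other KO clones. Between 1A and 1B the counts differed more than sampling noise allows, with chi-square over degrees of freedom at 6.74 (medium) and 4.85 (stimulated), and pairs that include clone 2 ranged from 26.2 to 39.0, so 1A and 1B are separate libraries. The KO clones also had the Y-linked gene Ddx3y near background, at 1.08 to 3.39 CPM in the 6 KO libraries against 135 to 219 in the 6 WT libraries.

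Levels are CPM, a gene's counts relative to a library size scaled by TMM factors. Fold changes are log2 ± SE from a fit with a term for each clone (edgeR's quasi-likelihood test), and calls were made where the p-value, adjusted by Benjamini-Hochberg over all 12231 genes tested, lay below 0.05. Of these, 8082 (66.1%) were called in the KO clones, 3925 higher (32.1%) and 4157 lower (34%). With so many genes called, size separates them: 1333 genes (10.9%) were called and changed 4-fold or more, 725 higher (5.93%) and 608 lower (4.97%). At the far end, 339 genes rose 16-fold or more and 74 fell as much, and 140 rose against 5 that fell 100-fold or more. These counts use fitted folds, which for genes near 0 counts in 1 condition depend on the prior count. Beyond a fold of 1.5, tested with glmTreat, lay 3997 genes (32.7%), 1816 higher (14.8%) and 2181 lower (17.8%). The 3 stimulated libraries did not overlap the 3 medium libraries in 8559 genes (70%), lying above in 4174 (34.1%) and below in 4385 (35.9%). Of the 8082 called genes, 8065 moved in the same direction in all 3 clones. With 1A and 1B summed, 7079 genes were called, of which 7031 were among the 8082.

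Directions are relative to the bulk of genes. The median log2 fold change over all genes was -0.01 with TMM factors and -0.39 when libraries were scaled by their totals alone, which called 2177 genes higher and 6399 lower. Members of the lists below are therefore read against the all-gene median, and where that scaling changed a list's balance its counts are given beside the main ones. List counts are likewise to be read beside the 32.1% of all genes called higher and the 34% called lower. Leaving out 1 KO clone moved some list medians and counts by more than 1.5 times, and many of those values are given too. Fewer cells cannot be told apart from less RNA per cell in such bulk libraries.

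Secreted signals rose. Of 21 cytokine genes tested 20 rose and none fell, with a median log2 fold change of 7.03 (6.62 with genes at 0 counts in medium set to their bound). Tnf, the tumour necrosis factor gene, stood at 108, 112 and 140 CPM in medium in clones 1A, 1B and 2 and at 2007, 1756 and 2296 CPM under stimulation. The groups were far apart, and the log2 fold change was 4.08 ± 0.15 (adjusted p = 8.5e-08). Il1b, the gene of interleukin 1 beta, went from 0.675, 0.541 and 0.740 CPM to 776, 556 and 1787 CPM (10.53 ± 0.39, adjusted p = 7.4e-07). Its partner Il1a went from 0.150, 0.203 and 0.247 CPM to 390, 223 and 1055 CPM (11.28 ± 0.30). Il33, an IL-1 family alarmin, reached 248, 177 and 837 CPM from at most 0.411. In these 3 genes of the IL-1 family clone 2 held the highest stimulated value and 1B the lowest, while all stimulated libraries lay far above all medium ones.

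Several cytokine genes were near 0 in medium, where a ratio of counts with its 95% counting interval, which covers counting error only, replaces the fitted fold. Il6 had 1 count over the 3 medium libraries and 3072 over the stimulated ones, at 119, 75.0 and 125 CPM, a 4247-fold ratio (762 to 167808). Csf3, the granulocyte growth factor gene, reached 192, 138 and 330 CPM from 2 counts, a 4357-fold ratio (1206 to 35986). Il12b, which encodes the p40 subunit of interleukin 12, had 0 counts in medium and 12.4, 12.7 and 12.6 CPM under stimulation. With 3 counts over the group as the floor, it was at least 169-fold higher (adjusted p = 0.0030). Il10, an anti-inflammatory cytokine gene, rose to no more than 2.15, 1.47 and 4.38 CPM from 2 counts, a 52.5-fold ratio (14.1 to 442). Il27, a cytokine of the IL-12 family, reached 804, 714 and 841 CPM (11.20 ± 0.17).

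**Figure D1:**
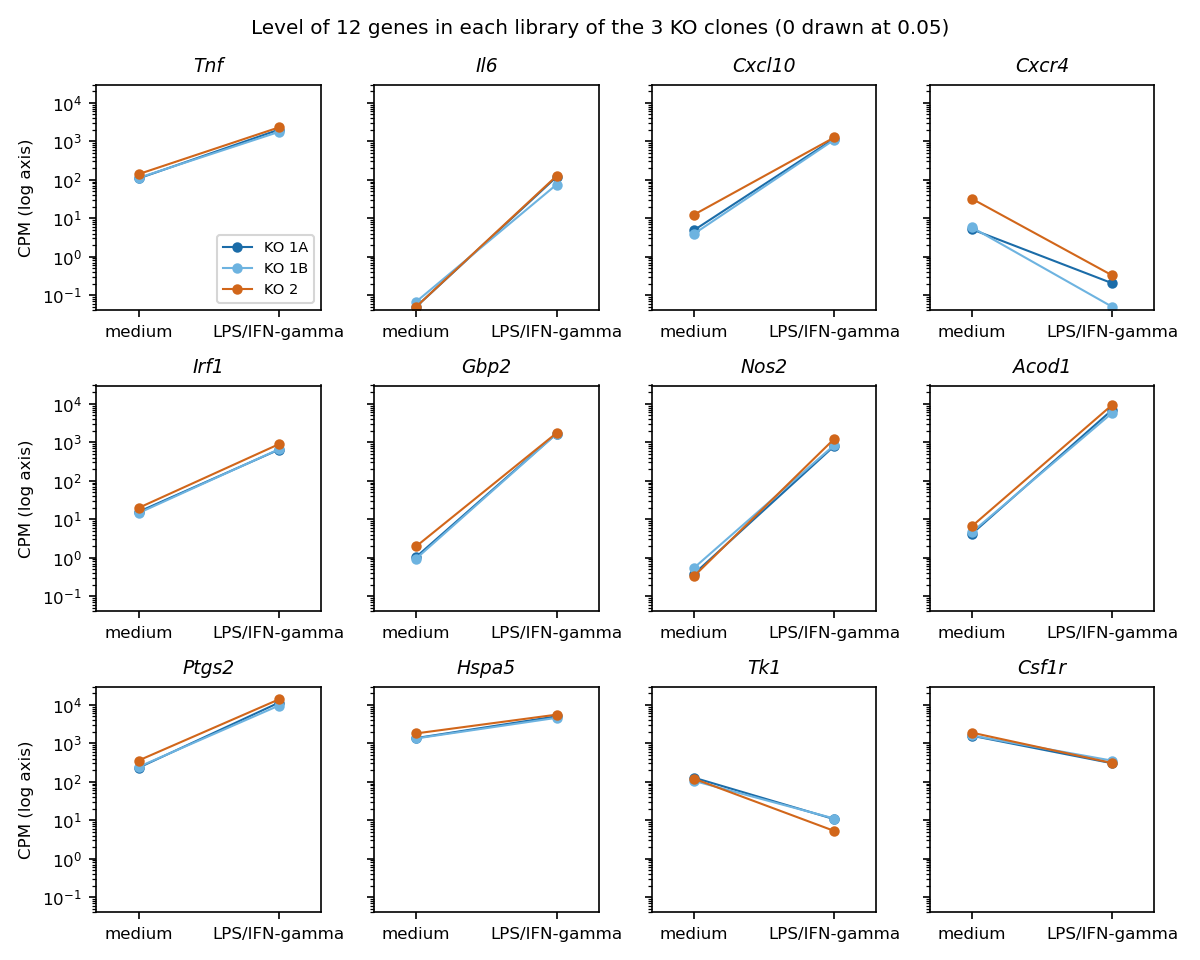
Level in CPM, on a log axis, of 12 genes in medium and after LPS/IFN-gamma, with 1 line per KO clone and values of 0 drawn at 0.05. All 3 lines run in the same direction in every panel, and those of Tnf, Irf1, Gbp2, Hspa5 and Ptgs2 nearly coincide, while Cxcr4 starts at a higher level in clone 2.

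Of 16 chemokine genes, whose products attract leukocytes, 15 rose and 1 fell, with a median of 7.52 (6.50 with genes at 0 counts set to their bound). Cxcl10 went from 4.87, 3.92 and 12.3 CPM to 1174, 1099 and 1259 CPM (7.51 ± 0.34), so the clones, of which clone 2 was highest in medium, met at nearly the same level. Its relatives Cxcl9 and Cxcl11, ligands of the same receptor, reached 628, 621 and 271 CPM (10.95 ± 0.34) and 792, 737 and 675 CPM (10.24 ± 0.34). Clone 2 was the lowest for both. The CC chemokine Ccl3 rose from 30.8, 42.4 and 39.8 CPM to 1924, 1775 and 2664 CPM (5.80 ± 0.15). Ccl4 rose from 2.92, 3.04 and 6.50 CPM to 507, 410 and 598 CPM (6.97 ± 0.25). Ccl22 had 3 counts in medium and reached 401, 370 and 358 CPM, a 5061-fold ratio (1732 to 24547). None of these 3 CC chemokines overlapped between conditions.

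Receptors for these signals were divided. Of 29 cytokine and chemokine receptor genes 14 rose and 11 fell (median 0.27), beside 32.1% and 34% of all genes. Under library totals the split was 13 and 14 with a median of -0.11. Without clone 2 the median was 0.16. Cxcr4, the receptor for the homing chemokine CXCL12, fell from 5.17, 5.81 and 32.3 CPM to 0.205, 0 and 0.328 CPM (-6.23 ± 0.37, adjusted p = 9.5e-07). Ccrl2, which encodes an atypical chemerin receptor, rose from at most 0.411 CPM to 29.1, 21.4 and 85.8 CPM (7.38 ± 0.24). As a share of library counts the listed genes together went from 0.339%, 0.329% and 0.426% to 0.151%, 0.149% and 0.188%, lower in each clone. The largest part of this share in medium was Csf1r, described next, which fell. The summed share therefore follows that gene and not the members in general.

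Csf1r, which encodes the CSF1 receptor that macrophages need to survive, was at 1577, 1601 and 1897 CPM in medium and 303, 354 and 307 CPM under stimulation (-2.39 ± 0.14, adjusted p = 1.1e-06). The groups were far apart, with per-clone log2 fold changes of -2.38, -2.18 and -2.63. Toll-like receptor and adaptor genes were mixed, 12 higher and 8 lower of 23 (median 0.50), beside 32.1% and 34% of all genes. Under library totals 9 rose and 9 fell, with a median of 0.12. Tlr13, a receptor for bacterial ribosomal RNA, fell from 18.7, 17.3 and 68.4 CPM to 1.02, 0.489 and 2.52 CPM (-4.67 ± 0.26). Tlr9, a receptor for CpG DNA, rose from 1.42, 1.96 and 1.73 CPM to 10.2, 15.8 and 7.44 CPM (2.69 ± 0.62). The signalling kinase gene Irak2 rose by 3.09 ± 0.31 and the LPS co-receptor Cd14 by 2.24 ± 0.44, from 411, 387 and 598 CPM to 1980, 1686 and 3035 CPM.

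Transcription factor genes that carry these signals rose together. Of 16 NF-kB and IkB family genes 13 rose and none fell (median 2.19), and of 18 IRF and STAT genes 13 rose and none fell (median 1.498). Under library totals these counts were 12 higher and 2 lower, and 12 higher and 3 lower. Nfkbiz, the nuclear IkB-zeta protein that switches on secondary NF-kB targets, went from 15.4, 16.2 and 22.7 CPM to 812, 678 and 666 CPM (5.32 ± 0.26). Bcl3, another nuclear IkB protein, rose by 4.15 ± 0.32 and Ikbke, a kinase upstream of IRF3, by 4.05 ± 0.22. Irf1, an early interferon gamma target, went from 15.5, 14.40 and 19.7 CPM to 644, 659 and 892 CPM (5.46 ± 0.16), while Irf7, the amplifier of type I interferon, rose by 5.06 ± 0.55 and Stat2 by 4.33 ± 0.14.

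Of 15 AP-1 and early response genes 10 rose and 1 fell (median 1.48). The 4 genes not called at 6 h included Fos, Fosb and Egr2. Fos stood at 25.8, 22.4 and 47.3 CPM in medium and 29.4, 36.0 and 39.5 CPM under stimulation (0.20 ± 0.17, adjusted p = 0.34). Higher were Batf2, from at most 0.675 CPM to 80.01, 85.2 and 91.8 CPM (7.33 ± 0.25), the stress factor Atf3, from 5.77, 5.003 and 8.72 CPM to 397, 357 and 435 CPM (5.95 ± 0.64), and Maff (4.87 ± 0.46). Junb (1.98 ± 0.12), Jund (1.08 ± 0.11) and Jun (0.81 ± 0.19) rose less, and the call of Jun was lost under library totals (0.43, adjusted p = 0.065). Fosl1 (3.45 ± 0.27) shares 57.2% of its exon length with another gene in the table, so its reads are uncertain. The 1 gene called lower, Ier5 (-0.63 ± 0.21), lost its call with 1A and 1B summed (adjusted p = 0.087) and without any 1 KO clone (0.081 to 0.12).

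Inhibitors of the pathway rose alongside it. Of 28 feedback inhibitor genes 19 rose and 2 fell (median 2.07, and 16 and 6 under library totals). Cish, a SOCS family inhibitor of cytokine receptors, had 0 counts in medium and 5.12, 4.59 and 6.78 CPM under stimulation, at least 73.3-fold higher. Dusp5, a phosphatase of the MAP kinase ERK, rose from 2.32, 3.38 and 9.21 CPM to 325, 333 and 541 CPM (6.45 ± 0.28). Cd274, the gene of the checkpoint ligand PD-L1, rose from 0.750, 1.28 and 1.48 CPM to 79.2, 73.8 and 126 CPM (6.28 ± 0.19). No stimulated library of these 3 genes was within reach of a medium one.

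Of 15 genes of RNA decay and RNA-binding factors 9 rose and 3 fell (median 0.54, and 7 and 6 under library totals). They include Elavl1, the gene of HuR, which stabilises AU-rich mRNAs and rose (0.51 ± 0.08). Zfp36, the gene of tristetraprolin, which binds AU-rich elements, rose from 14.6, 17.2 and 14.2 CPM to 142, 147 and 175 CPM (3.32 ± 0.16). Its relative Zfp36l2 fell (-1.27 ± 0.30) and Zfp36l1 was not called (-0.56 ± 0.32, adjusted p = 0.15). Zc3h12a, the endonuclease Regnase-1, rose by 2.58 ± 0.15 and the exonuclease gene Xrn1 by 1.74 ± 0.11, with 154 CPM in each stimulated library against 41.8 to 48.6 in medium. Hnrnpd and Cnot1 were not called (-0.05 ± 0.11 and -0.05 ± 0.08, adjusted p = 0.68 and 0.62).

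Interferon-induced GTPases formed the most uniform target group. All 15 guanylate-binding protein (GBP) and immunity-related GTPase (IRG) genes tested rose, each 4-fold or more (median 8.99). Together they took 0.0051%, 0.0055% and 0.0058% of the counts in medium and 0.709%, 0.711% and 0.771% under stimulation, a 139-, 129- and 133-fold rise in clones 1A, 1B and 2. These GTPases attack the vacuoles of intracellular pathogens. Gbp2 went from 1.05, 0.947 and 1.97 CPM to 1686, 1662 and 1745 CPM (10.35 ± 0.23), and Iigp1 from 1.05, 1.28 and 1.23 CPM to 1236, 1331 and 1320 CPM (10.08 ± 0.18). The smallest rises were those of Irgm1 (5.77 ± 0.56) and Irgm2 (5.80 ± 0.57), which stood at 23.4 to 28.6 and 5.95 to 6.33 CPM in medium. Members such as Tgtp1 and Tgtp2 are near-identical copies, and how reads were split between them is not given in the sources used here.

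Antiviral and antigen presentation genes followed. Of 46 type I interferon-stimulated genes 45 rose and none fell (median 4.79), and they grew from 0.129%, 0.128% and 0.142% of counts to 1.79%, 1.73% and 2.06%. Ifi205, of the PYHIN family, rose by 9.24 ± 0.26 and Mx1, an antiviral GTPase, from at most 0.375 CPM to 84.0, 73.8 and 108 CPM (8.27 ± 0.28). Slfn1 had 0 counts in medium and 25.0, 18.4 and 59.1 CPM under stimulation, at least 448-fold higher. Of 21 MHC class I and immunoproteasome genes 19 rose and none fell (median 2.35). The peptide transporter gene Tap1 rose from 28.6, 27.7 and 31.3 CPM to 646, 637 and 789 CPM (4.56 ± 0.16), and Nlrc5, the class I transactivator, by 3.82 ± 0.11.

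Costimulatory genes rose, while Ciita and H2-Ab1 stayed near 0. Of 10 genes in the MHC class II and costimulation list 9 rose and none fell (median 4.34). Cd40 went from 2.25, 2.43 and 1.73 CPM to 1299, 1204 and 1540 CPM (9.27 ± 0.41). Cd86, at 0 counts in medium, reached 29.3, 26.4 and 38.8 CPM, at least 420-fold higher, and Cd80 rose from 0.0750, 0.609 and 0.411 CPM to 10.0, 11.1 and 13.2 CPM (4.92 ± 0.35). Ciita, the class II transactivator, reached only 0.716, 0.587 and 2.30 CPM from 1 count, a 47.0-fold ratio (7.89 to 1911). The class II gene H2-Ab1 stood at 0.225, 0.338 and 1.15 CPM in medium and 0.205, 0.0978 and 1.31 CPM under stimulation (adjusted p = 0.84). In WT clones both genes depended on clone 2, where Ciita reached 34.0 CPM against 1.37 and 0.57 in the others and H2-Ab1 3.55 CPM against 0 in both. The KO minus WT differences of these genes did not pass the test (adjusted p = 0.48 for Ciita and 0.083 for H2-Ab1). H2-DMa, which helps load class II molecules, rose from 1.35, 1.49 and 2.63 CPM to 2.76, 4.30 and 4.38 CPM (1.09 ± 0.26). Cd74, the invariant chain, rose by 0.92 ± 0.27, and this call was lost with 1A and 1B summed (adjusted p = 0.073) and without any 1 KO clone (0.062 to 0.081).

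The sequences in front of the start sites of these groups are shown because the groups that rose most differed in the motif letters they hold. For 8903 of the 12231 genes tested, a RefSeq window of GRCm38.p6 was at hand, and the 250 bases before the start were searched on both strands. The motifs were NF-kB (GGGA and CC with any 4 bases between), ISRE (2 copies of GAAA with 2 bases between), GAS (TTC and GAA with 3 bases between), AP-1 (TGANTCA), E2F (TTTNN before CGC) and the endoplasmic reticulum stress element ERSE (CCAAT and CCACG with 9 bases between). Matches of different motifs may overlap, and a match describes letters, not a bound site. In the following windows, written 5′ to 3′ on the gene's strand, capitals mark every match.
Il6 (GRCm38.p6 chr5:30012864-30013113, plus strand): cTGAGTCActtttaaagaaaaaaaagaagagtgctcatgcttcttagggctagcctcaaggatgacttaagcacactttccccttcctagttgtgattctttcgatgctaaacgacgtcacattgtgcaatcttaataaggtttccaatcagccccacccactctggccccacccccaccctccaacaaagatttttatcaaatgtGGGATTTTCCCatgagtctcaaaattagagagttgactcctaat
Cxcl10 (GRCm38.p6 chr5:92348890-92349139, minus strand): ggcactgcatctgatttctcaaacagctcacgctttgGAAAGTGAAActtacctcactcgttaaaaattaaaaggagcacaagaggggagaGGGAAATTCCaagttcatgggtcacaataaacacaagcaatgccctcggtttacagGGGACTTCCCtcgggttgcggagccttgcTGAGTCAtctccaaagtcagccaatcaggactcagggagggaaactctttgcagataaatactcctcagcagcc
Irf1 (GRCm38.p6 chr11:53769764-53770013, plus strand): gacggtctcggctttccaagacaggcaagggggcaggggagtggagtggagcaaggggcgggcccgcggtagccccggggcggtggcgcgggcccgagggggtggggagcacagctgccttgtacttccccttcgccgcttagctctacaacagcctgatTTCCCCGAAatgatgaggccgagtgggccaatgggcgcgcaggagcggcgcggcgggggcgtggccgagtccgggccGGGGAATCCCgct
Igtp (GRCm38.p6 chr11:58199306-58199555, plus strand): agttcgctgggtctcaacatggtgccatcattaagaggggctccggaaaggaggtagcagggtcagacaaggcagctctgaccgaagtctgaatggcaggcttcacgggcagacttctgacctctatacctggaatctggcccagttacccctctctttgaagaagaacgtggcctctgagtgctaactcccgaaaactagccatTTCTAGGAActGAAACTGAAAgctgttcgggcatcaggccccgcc
Tgtp2 (GRCm38.p6 chr11:49064213-49064462, minus strand): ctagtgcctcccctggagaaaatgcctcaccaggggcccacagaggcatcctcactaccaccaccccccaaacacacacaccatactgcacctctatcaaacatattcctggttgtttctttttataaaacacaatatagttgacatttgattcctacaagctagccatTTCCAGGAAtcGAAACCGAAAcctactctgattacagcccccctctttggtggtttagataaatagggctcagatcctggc
Creld2 (GRCm38.p6 chr15:88819396-88819645, plus strand): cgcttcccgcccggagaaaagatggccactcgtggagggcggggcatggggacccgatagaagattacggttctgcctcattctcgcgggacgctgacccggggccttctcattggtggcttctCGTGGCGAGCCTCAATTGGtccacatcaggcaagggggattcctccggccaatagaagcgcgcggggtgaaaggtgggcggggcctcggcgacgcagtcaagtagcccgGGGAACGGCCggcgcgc
Hspa5 (GRCm38.p6 chr2:34771840-34772089, plus strand): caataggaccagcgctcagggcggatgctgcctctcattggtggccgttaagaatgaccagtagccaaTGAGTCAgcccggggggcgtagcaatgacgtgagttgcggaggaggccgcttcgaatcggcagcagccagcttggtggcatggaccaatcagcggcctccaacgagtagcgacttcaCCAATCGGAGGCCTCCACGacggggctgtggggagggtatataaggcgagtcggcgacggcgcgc
The window of Il6 holds 2 overlapping NF-kB matches, from base -44 to -34 before the start, and Cxcl10 holds 2 NF-kB matches, an ISRE and an AP-1 match. Irf1 holds a GAS and an NF-kB match, while the IRG genes Igtp and Tgtp2 hold a GAS followed at the same spacing by an ISRE (GAS at -45 and -81, ISRE at -34 and -70, first bases). Creld2 and Hspa5, 2 chaperone pathway genes described below, each hold an ERSE.

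Across all windows, an ISRE was found in 47 of 232 (20.3%) genes called 16-fold or more higher and in 22 of 270 (8.1%) called 4 to 16-fold higher. It was found in 8 of 422 (1.9%) called 4-fold or more lower, in 58 of 2820 (2.1%) not called and in 2.9% of all 8903. By list the ISRE was in 9 of 10 GBP and IRG windows and 16 of 34 windows of type I interferon-stimulated genes, and in 0 of 15 cytokine windows. GAS letters were in 9.5%, 9.6% and 5.5% of the same 3 classes of called genes and in 5.9% of all windows. NF-kB letters showed little spread by size of response, 59 of 232, 52 of 270 and 93 of 422 against 22.2% of all windows, and by list they were in 6 of 15 cytokine, 5 of 11 chemokine and 8 of 17 MHC class I windows, in 9 of 24 mitosis and 9 of 28 DNA replication windows, and in 0 of 10 GBP and IRG windows. AP-1 letters were in 14.7%, 9.6% and 4.7% against 4.1%. E2F letters were in 5.2%, 5.2% and 6.6% against 7.8%, and by list in 7 of 28 DNA replication and 1 of 24 mitosis windows. These shares are descriptions of 250 bases per gene and say nothing of enhancers.

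Among effector enzymes, those making nitric oxide and itaconate stood out. Nos2, the inducible nitric oxide synthase, went from 0.375, 0.541 and 0.329 CPM to 803, 848 and 1234 CPM (11.10 ± 0.27, adjusted p = 1.6e-08). Genes that supply it also rose, namely Gch1, which makes its cofactor, from 7.35, 3.92 and 8.47 CPM to 62.1, 52.1 and 88.9 CPM (3.38 ± 0.21), Asl (0.72 ± 0.09) and Ass1, which rebuild arginine from citrulline. Ass1 had 2 counts in medium and 4.91, 6.94 and 9.85 CPM under stimulation, a 144-fold ratio (39.5 to 1201). Of 14 genes of nitric oxide, arginine and polyamine metabolism 9 rose and 1 fell (median 1.18, and 8 and 4 under library totals, or 9 and 0 with 1A and 1B summed, with a median of 0.70 without clone 2). Arg1, which competes for arginine, stayed at 0.102, 0 and 1.31 CPM, and its call (adjusted p = 0.029) rested on clone 2: without it the adjusted p was 0.87, and without 1A 0.066. Odc1, which starts polyamine synthesis, rose from 79.9, 95.5 and 105 CPM to 1606, 1636 and 1858 CPM (4.19 ± 0.12).

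Acod1, the enzyme that turns the citrate cycle intermediate aconitate into itaconate, went from 4.12, 4.53 and 6.50 CPM to 6918, 5749 and 9326 CPM (10.50 ± 0.34, adjusted p = 2.9e-07). Of the 23 genes of its list, which holds Acod1 and citrate cycle enzymes, 3 were higher, namely Acod1, Acly (0.29 ± 0.08) and Dlst (0.28 ± 0.08), and 7 lower (median -0.03). The counts were 1 and 17 under library totals, 2 and 4 with 1A and 1B summed, and 4 lower without any 1 KO clone. Without clone 1A only 1 gene was higher, and without clone 2 the median was -0.11. Idh1 fell from 189, 169 and 274 CPM to 56.1, 58.5 and 87.1 CPM (-1.65 ± 0.11) and Idh2 from 261, 256 and 231 CPM to 160, 153 and 105 CPM (-0.86 ± 0.11). Both isocitrate dehydrogenases act after the aconitase step, and neither overlapped between conditions.

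The prostaglandin pathway was recast at both ends. Ptgs2, the inducible cyclooxygenase COX-2, rose from 231, 243 and 356 CPM to 11381, 9559 and 13846 CPM (5.40 ± 0.19) and took on the largest gain of counts of any gene. Ptges, the terminal prostaglandin E synthase, rose from 0.150, 0.541 and 0.329 CPM to 3.89, 3.72 and 39.0 CPM (5.13 ± 0.57), with clone 2 far above 1A and 1B. The constitutive cyclooxygenase Ptgs1 fell from 7.42, 9.60 and 0.411 CPM to 0.512, 0.293 and 0 CPM (-4.39 ± 0.55), and here clone 2 was already low in medium, so the groups overlap. Hpgd, which inactivates prostaglandins, fell from 178, 137 and 153 CPM to 7.37, 4.69 and 3.83 CPM (-4.89 ± 0.24). Leukotriene genes fell as well, among them Alox5 (-1.62 ± 0.24), its activating protein Alox5ap (-1.58 ± 0.14) and the leukotriene A4 hydrolase Lta4h (-0.72 ± 0.08). In all, 5 of 15 genes of this list rose and 8 fell (median -0.71), and 3 rose without 1B or without 2. With 1A and 1B summed 3 rose and 8 fell, as Ptgir (adjusted p = 0.075) and Ptger4 (0.069) lost their calls, which they also did without single KO clones (0.072 to 0.3 for Ptgir, and 0.14 and 0.16 for Ptger4 without 1B or 2).

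Energy metabolism shifted less. Of 25 glycolysis and hypoxia genes 17 rose and 3 fell (median 0.70, and 13 and 8 under library totals, with 5 lower without clone 2), led by the sugar transporter genes Slc2a6 (2.72 ± 0.14) and Slc2a1, which went from 48.1, 49.3 and 49.0 CPM to 273, 230 and 362 CPM (2.54 ± 0.17). Vegfa, a hypoxia target, rose from 14.6, 13.3 and 23.4 CPM to 78.5, 68.3 and 185 CPM (2.60 ± 0.17). Oxidative phosphorylation genes had 12 of 27 higher and 2 lower with a median of 0.15, none beyond 1.5-fold. With 1A and 1B summed 9 were higher and 1 lower. Without 1B 6 were higher, and 1 was lower without any 1 KO clone. Under library totals the list turned to 1 higher and 14 lower. The 23 higher and 0 lower of 32 cytosolic ribosomal protein genes (median 0.37, and 15 higher with 1A and 1B summed, or 14 without 1A or without 1B) likewise became 2 higher and 3 lower, and the 16 higher and 2 lower of 27 Myc and nucleolar genes (median 0.35, and 14 and 1 summed) became 5 and 7. These 3 lists thus have no direction that holds under both scalings.

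In sterol synthesis and uptake 11 of 22 genes rose and 3 fell (median 0.42, and 5 and 5 under library totals, or 7 and 3 with 1A and 1B summed, and 7 higher without 1A or 1B). The log2 fold changes of the members ran up to 1.59, and the lowest was that of Dhcr7, the last enzyme of the pathway (-1.53 ± 0.22). Among cholesterol efflux and LXR genes 7 of 16 rose and 6 fell, beside 32.1% and 34% of all genes. The list's median was -0.03, or 0.068 without clone 1A and -0.114 without clone 1B. Under library totals 5 rose and 8 fell (median -0.40). The efflux pump gene Abca1 rose from 4.35, 2.97 and 0.904 CPM to 43.3, 24.1 and 30.5 CPM (3.59 ± 0.37), and Cyp27a1, a sterol hydroxylase, fell by 2.48 ± 0.18 on the log2 scale. In NAD metabolism 5 of 16 rose and 8 fell, beside 32.1% and 34% of all genes. The median was -0.40, or -0.02 without clone 1B and -0.25 with 1A and 1B summed. Bst1, an NAD-consuming surface enzyme, rose by 2.38 ± 0.18, Nampt, which salvages NAD, from 178, 194 and 179 CPM to 356, 347 and 316 CPM (0.89 ± 0.11), and Parp1 fell (-1.57 ± 0.13). The long noncoding gene Gdap10 (chr12:32821872-32826904), which lies on the same strand within the span of Nampt (chr12:32819545-32853349), went from 0.600, 1.28 and 0.164 CPM to 4.91, 6.84 and 1.75 CPM (2.71 ± 0.23).

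Stress responses rose in 4 lists. Of 26 genes of amino acid shortage and the integrated stress response, which runs through the factor ATF4, 20 rose and none fell (median 1.04, and 16 and 5 under library totals). Trib3 rose from 1.57, 1.35 and 2.88 CPM to 37.1, 28.8 and 38.5 CPM (4.20 ± 0.51) and Nupr1 from 18.4, 16.8 and 12.2 CPM to 212, 191 and 146 CPM (3.54 ± 0.42). Of 25 genes of chaperones and degradation in the endoplasmic reticulum 22 rose and none fell (median 0.81, and 19 and 3 under library totals). Hspa5, the master chaperone BiP, rose from 1369, 1337 and 1809 CPM to 5024, 4601 and 5560 CPM (1.76 ± 0.09). Herpud1, an adaptor of degradation, went from 62.1, 59.2 and 76.7 CPM to 306, 289 and 337 CPM (2.24 ± 0.09), Creld2 from 63.5, 63.3 and 74.7 CPM to 226, 222 and 295 CPM (1.87 ± 0.08), and the cochaperone Dnajb9 rose by 2.11 ± 0.17. The ERSE in the windows of Creld2 and Hspa5 was found in 8 of 21 windows of this list, and in 13 of all 8903.

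Heat shock protein genes, cytosolic and mitochondrial, rose in 10 of 11 cases (median 0.77), led by the cochaperones Dnajb1 (1.24 ± 0.12) and Dnaja1 (1.09 ± 0.12), and clone 2 reached 208 CPM of Dnajb1 against 115 and 117 in the others. The smallest rises, those of Hspd1 and Hspa4, reversed under library totals to -0.01 and -0.11 without a call. Hspd1 also lost its call without clone 1A or 2 (adjusted p = 0.11 and 0.15) and Hspa4 without any 1 KO clone (0.054 to 0.14). The factor Hsf1 was not called (0.01 ± 0.10, adjusted p = 0.92). Among 16 NRF2 pathway genes 11 rose and 2 fell (median 0.92). Slc7a11, the cystine importer, went from 43.6, 39.8 and 62.9 CPM to 494, 380 and 877 CPM (3.52 ± 0.30). Hmox1, the heme-degrading enzyme, went from 82.0, 125 and 345 CPM to 764, 782 and 2447 CPM (2.90 ± 0.15). Clone 2 was the highest for Hmox1 in both conditions, and its log2 fold change of 2.83 lay between those of 1A (3.22) and 1B (2.65).

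Iron genes were divided, 7 of 15 higher and 3 lower (median 0.30), beside 32.1% and 34% of all genes. Under library totals 6 rose and 6 fell, with a median of -0.08. The exporter ferroportin, Slc40a1, rose from 12.7, 16.2 and 47.4 CPM to 71.9, 70.8 and 203 CPM (2.23 ± 0.11) and the importer Slc11a2 by 2.53 ± 0.09, while the transferrin receptor Tfrc was not called (0.09 ± 0.10, adjusted p = 0.45) and Hfe fell (-2.86 ± 0.22). Of 8 NADPH oxidase and superoxide dismutase genes 5 rose and none fell (median 0.52). Sod2, the mitochondrial dismutase, went from 107, 103 and 118 CPM to 662, 577 and 879 CPM (2.67 ± 0.14), and Cybb, the oxidase's catalytic subunit, from 515, 354 and 712 CPM to 2013, 1636 and 2290 CPM (1.95 ± 0.30). The cytosolic subunits Ncf1 and Ncf4 were not called (0.07 ± 0.08 and -0.13 ± 0.12, adjusted p = 0.49 and 0.38).

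**Figure D2:**
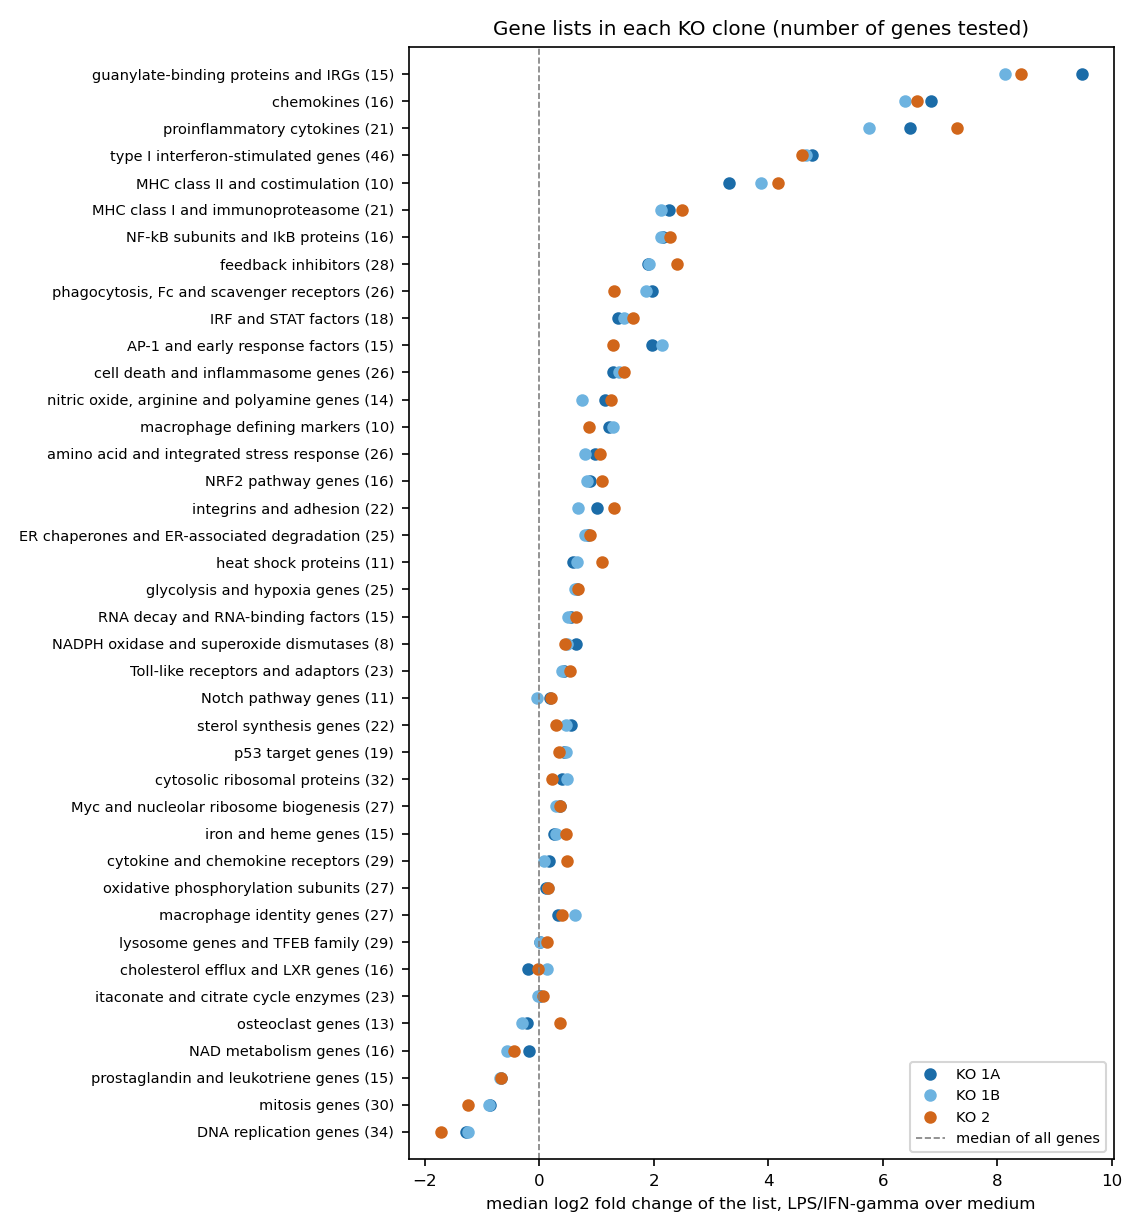
Median log2 fold change of each gene list with at least 5 genes tested, with 1 point per KO clone, the number of genes tested in brackets and the median of all genes as a dashed line. GBP and IRG genes, chemokines and cytokines lie at the top, DNA replication genes, between -1.25 and -1.72, at the bottom, and the clones are close together in most lists.

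Genes of cell division fell. Of 34 DNA replication genes 33 fell and none rose (median -1.43), and of 30 mitosis genes 29 fell and 1 rose (median -0.97). Tk1, the S-phase thymidine kinase, fell from 128, 105 and 120 CPM to 10.64, 11.05 and 5.25 CPM (-3.73 ± 0.24). The cell cycle factor genes E2f2 and E2f8 were among them, E2f2 going from 49.6, 44.9 and 49.7 CPM to 8.08, 8.99 and 5.80 CPM (-2.65 ± 0.15) and E2f8 changing by -2.55 ± 0.21. Mki67, the proliferation marker, went from 1331, 1502 and 1135 CPM to 500, 522 and 349 CPM (-1.55 ± 0.11), Foxm1 fell by 1.72 ± 0.11 and the spindle checkpoint kinase gene Ttk by 1.65 ± 0.16. Clone 2 had the lowest stimulated value of each of these 6 genes. By share of counts the replication list went from 0.687%, 0.689% and 0.671% to 0.222%, 0.232% and 0.162%, and the mitosis list from 0.935%, 0.969% and 0.826% to 0.400%, 0.402% and 0.264%. The test of clone 2 against 1A and 1B called none of these genes.

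Cell death genes leaned upward, while p53 target genes were near balance under library totals. Of 26 cell death and inflammasome genes 21 rose and 4 fell (median 1.38). Zbp1, a sensor of Z-form nucleic acid, went from 0.375, 0.541 and 2.30 CPM to 300, 264 and 362 CPM (8.25 ± 0.65). The death receptor gene Fas went from 0.750, 1.62 and 6.17 CPM to 210, 199 and 477 CPM (6.85 ± 0.37), and Casp4, the intracellular LPS sensor, from 7.12, 7.50 and 9.13 CPM to 219, 197 and 221 CPM (4.75 ± 0.18). Among 19 p53 target genes 10 rose and 5 fell (median 0.39, and 9 and 8 under library totals, with 3 lower without clone 2), with Gadd45b up by 5.23 ± 0.18 and Sesn1 at -3.08 ± 0.14. The purinergic receptor gene P2rx7 fell from 36.3, 35.7 and 40.8 CPM to 5.22, 6.45 and 5.91 CPM (-2.68 ± 0.13).

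Macrophage identity genes moved both ways, 13 of 27 higher and 9 lower (median 0.14), beside 32.1% and 34% of all genes. Under library totals 11 rose and 10 fell, with a median of -0.24. Irf8, a factor of the monocyte lineage, rose from 65.9, 58.8 and 64.1 CPM to 1056, 1028 and 808 CPM (3.93 ± 0.12). Of the 10 markers used to check the cell type, 6 rose and 3 fell, and their summed share of counts went from 0.578%, 0.543% and 1.61% to 0.520%, 0.517% and 0.998%. Spi1, the gene of the lineage factor PU.1, stood at 137, 134 and 152 CPM in medium and 180, 183 and 204 CPM under stimulation (0.42 ± 0.08). Cd68 fell from 363, 421 and 406 CPM to 202, 216 and 241 CPM (-0.85 ± 0.11), and Adgre1, the F4/80 gene, rose by 1.85 ± 0.11. Lyz2, the lysozyme gene, was not called (adjusted p = 0.53) and stood apart by clone, at 2106, 1790 and 10558 CPM in medium and 2640, 2741 and 7384 CPM under stimulation.

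Markers of other cell types were few. Of 8 dendritic cell markers 4 were measured, of which 2 rose and 1 fell, and they took at most 0.0011% of the counts of any KO library. Xcr1 rose from 1 count to 9.11, 8.51 and 7.003 CPM, a 332-fold ratio (59.0 to 13160). Lck, a T cell kinase gene, went from 3.82, 3.72 and 4.77 CPM to 20.8, 25.4 and 14.8 CPM (2.29 ± 0.21), the mast cell marker Kit from 0 counts to 2.15, 1.66 and 2.63 CPM, and the B cell adaptor Blnk from 3.90, 4.60 and 5.67 CPM to 1.43, 1.17 and 0.875 CPM (-1.995 ± 0.32). The other 9 T and NK cell, 6 B cell and 5 mast cell markers were not in the table.

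Uptake and adhesion genes mostly rose. Of 26 genes of phagocytosis, Fc and scavenger receptors 19 rose and 3 fell (median 1.80). Axl, a receptor for apoptotic cells, went from at most 0.247 CPM to 76.2, 92.0 and 63.1 CPM (8.38 ± 0.52), the IgG receptor Fcgr4 from at most 0.658 CPM to 37.9, 41.2 and 50.7 CPM (6.91 ± 0.61), and the fungal lectin receptor Clec4n rose to 10.8, 12.03 and 50.9 CPM (5.20 ± 0.24). Of 22 integrin and adhesion genes 12 rose and 5 fell (median 0.87, or 1.31 without clone 1B). The collagenase gene Mmp13, at 0 counts in medium, reached 9.41, 6.55 and 40.8 CPM, at least 245-fold higher, and the gelatinase gene Mmp9 went from 1.12, 1.01 and 0.740 CPM to 36.7, 37.2 and 38.1 CPM (5.26 ± 0.25). Itga4, the alpha 4 integrin, fell from 2592, 2389 and 2400 CPM to 1521, 1483 and 1467 CPM (-0.72 ± 0.13). Sirpa, whose product receives the CD47 signal against being eaten, fell from 233, 214 and 332 CPM to 7.88, 9.87 and 12.7 CPM (-4.67 ± 0.37), and Cd47 itself rose from 32.2, 28.4 and 36.3 CPM to 223, 202 and 253 CPM (2.81 ± 0.18).

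RAW264.7 cells can form osteoclasts, and of 13 osteoclast genes 5 rose and 5 fell, near the 32.1% and 34% of all genes. The list's median was -0.27, with 0.36 in clone 2 alone, and 0.049 without clone 1A. The fusion gene Dcstamp rose from 1.87, 1.76 and 2.30 CPM to 7.88, 10.9 and 24.1 CPM (2.76 ± 0.25) and the kinase gene Src to 26.7, 22.6 and 91.3 CPM (7.92 ± 0.23). The RANK receptor gene Tnfrsf11a fell from 150, 150 and 195 CPM to 77.1, 75.6 and 59.3 CPM (-1.22 ± 0.18) and the master factor Nfatc1 by 1.19 ± 0.15 on the log2 scale. Of 29 lysosome genes 12 rose and 8 fell, near the 32.1% and 34% of all genes (median -0.02, and 7 and 15 under library totals), with the protease gene Ctsc at 3.70 ± 0.29 and the regulator Tfeb at -2.99 ± 0.18. Of 11 Notch pathway genes 5 rose and 3 fell (median 0.44, or 0.014 without clone 2), beside 32.1% and 34% of all genes. Under library totals 3 rose and 4 fell. Notch1 rose from at most 0.493 CPM to 50.9, 56.5 and 46.8 CPM (6.82 ± 0.33), and the ligand gene Jag1 was not called (0.46 ± 0.36, adjusted p = 0.30), at 18.6, 16.5 and 72.7 CPM under stimulation.

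More genes rose from near 0 counts than fell to near 0. A gene with 3 or fewer counts in 1 condition entered the test only through its counts in other libraries. Over the 3 clones, 127 of 10812 protein-coding genes tested had 3 or fewer counts in medium and were called higher, 48 of them reaching 5 CPM or more. In the other direction 43 of the 10812 had 3 or fewer counts under stimulation and were called lower, of which 1 was at 5 CPM or more in medium. That gene, Myadml2, stood at 6.22, 4.60 and 5.02 CPM in medium and 0, 0 and 0.109 CPM under stimulation, a 153-fold ratio (27.2 to 6085). Switched on were F3, the tissue factor that starts coagulation (26.6, 25.4 and 63.8 CPM, 1525-fold, 273 to 60286) and Gbp9 (41.2, 45.5 and 42.5 CPM, 579-fold, 198 to 2811). The activin antagonist gene Fst, at 0 counts in medium, reached 16.5, 12.1 and 41.0 CPM, at least 304-fold higher. Switched off were S1pr1, the sphingosine phosphate receptor of cell egress, with 92 counts against 2 (33.3-fold lower, 8.95 to 279), and C5ar2, a complement receptor, with 93 against 2 (33.6-fold lower, 9.05 to 282).

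Other large falls follow. Rasa3, an inhibitor of Ras and Rap, fell from 94.8, 98.0 and 122 CPM to 2.46, 3.52 and 3.39 CPM (-5.06 ± 0.32), and Slc43a2, an amino acid transporter gene, from 97.9, 100 and 178 CPM to 3.07, 3.23 and 6.89 CPM (-4.86 ± 0.30). Nlrp10, an inflammasome-related gene, fell from 7.80, 8.59 and 18.4 CPM to 0.205, 0.196 and 0.438 CPM (-5.32 ± 0.32). Ranbp3l fell from 235, 214 and 32.6 CPM to 7.37, 6.94 and 2.52 CPM (-4.73 ± 0.26), with clone 2 low in both conditions. Fndc10 (-5.45 ± 0.40) has the same counts as another gene in every library and Rarb (-5.10 ± 0.26) shares 34.1% of its exon length with one, so both are uncertain.

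Apart from Ptgs2 and Acod1, the 10 largest gains of CPM included Actb, the beta actin gene, from 4535, 4468 and 4419 CPM to 10373, 9723 and 10712 CPM (1.20 ± 0.09), the interferon-induced ubiquitin ligase gene Rnf213, from 375, 367 and 377 CPM to 5791, 5699 and 6975 CPM (4.04 ± 0.13), Hspa5 and Plek, the gene of a substrate of protein kinase C (2.60 ± 0.09). Because Actb rose, it is no stable reference in these libraries. Among the 10 largest losses were Csf1r, Itga4, Mki67 and Ahnak, the last from 2964, 3064 and 2347 CPM to 1690, 1745 and 2045 CPM (-0.61 ± 0.13). These are shares of counts and do not compare genes per length.

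The response was closely shared by the 3 clones. Over 9845 genes at 5 CPM or more, the log2 fold changes of 1A and 1B differed by a median of 0.13, those of 1A and 1B from clone 2 by 0.18 and 0.19, and those of WT clones from each other by 0.23 to 0.25. More than a 2-fold gap was found in 1.14% of genes between 1A and 1B, 2.23% and 2.34% in the pairs with clone 2 and 5.3% to 5.79% between WT clones. The test of clone 2 against 1A and 1B called 0 of 12231 genes (0%) with edgeR and 0 with DESeq2, with 380 genes at an unadjusted p below 0.05 in edgeR and 159 in DESeq2. This fit has 3 residual degrees of freedom, so it does not show that the clones respond alike.

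Among genes past 4-fold and at 20 CPM or more, the 5 with the smallest spread between clones included Fbxo5, an inhibitor of the anaphase-promoting complex (79.8, 73.3 and 72.8 CPM to 13.8, 12.9 and 12.9 CPM, -2.51 ± 0.15), the repressor gene Klf8 (2.65 ± 0.13) and Cd47. Genes near 0 in medium were among those furthest apart. Serpina3g, a cathepsin inhibitor gene, reached 107, 109 and 41.9 CPM, with per-clone log2 fold changes of 11.32, 11.35 and 7.67, and the collagen gene Col5a3 reached 30.3, 31.5 and 98.4 CPM (8.02, 7.48 and 11.20). Serpina3g had 0, 0 and 0.164 CPM in medium, and a per-clone value from 0 counts depends on the prior count of 0.5. Ccl5 was also near 0 in medium, at 0.450, 0.947 and 0.0822 CPM, and reached 479, 481 and 591 CPM. Its per-clone folds were thus also far apart, but by the medium values more than by the stimulated ones.

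**Figure D3:**
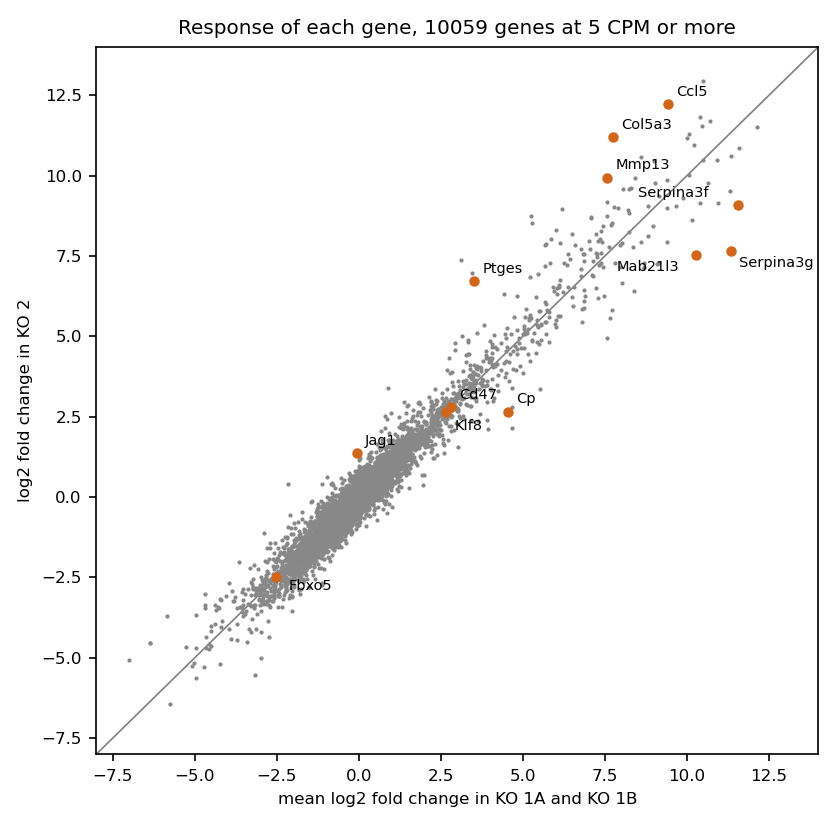
Log2 fold change in KO clone 2 against the mean of clones 1A and 1B for 10059 genes at 5 CPM or more in medium or under stimulation, with the line of equality and 12 named genes marked in orange. Points lie along the line, with wider scatter for genes that rose most; Fbxo5, Klf8 and Cd47 sit on it, while Col5a3 (11.20 in clone 2) and Serpina3g (7.67) sit off it.

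Set against the WT response, in which 7485 genes (61.2%) were called, 3649 higher (29.8%) and 3836 lower (31.4%), the KO response differed in 40 of 12231 genes (0.327%), 20 higher and 20 lower. This count is fragile: edgeR called 0 with 1A and 1B summed (965 genes at an unadjusted p below 0.05), 0 without clone 1A (880), 0 without clone 2 (1127) and 1 without clone 1B, while DESeq2 called 206. It was 0 without the clone terms (611). The values below come from 3 KO and 3 WT clones, and that the 3 KO clones are independent is not established. All KO libraries also shared the near absence of Ddx3y, which cannot be told apart from the genotype here.

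The chemokine genes Ccl4 and Ccl3 rose further in KO clones. Ccl4 rose by 6.97 ± 0.25 in KO and 4.29 ± 0.22 in WT clones, a difference of 2.68 ± 0.31 (adjusted p = 0.026). The WT clones stood at 23.9, 6.42 and 7.84 CPM in medium and 395, 97.6 and 235 CPM under stimulation. In medium, KO 1A and 1B lay below every WT clone, and KO 2 lay just above the WT clone at 6.42 CPM. Every stimulated KO library lay above every stimulated WT library. The difference in response thus holds lower medium levels in KO 1A and 1B as well as higher stimulated ones. Ccl3 differed by 1.59 ± 0.17 and Hmox1 by 1.82 ± 0.20. WT clones held 403, 1181 and 226 CPM of Hmox1 in medium, above all KO medium libraries but clone 2, which lay between them. The difference in the Hmox1 response thus also holds lower medium levels in KO 1A and 1B. In the chaperone list, 5 of 25 genes differed and all were higher in KO, beside 0.164% of all genes called higher. The list was chosen with earlier results of these data known, and none of its calls held with 1A and 1B summed. Herpud1 differed by 1.11 ± 0.13 and Creld2 by 0.90 ± 0.12, and the median of the list was 0.81 in KO and 0.31 in WT clones. For Herpud1 the medium levels were alike, at 62.2 to 66.1 CPM in WT and 59.2 to 76.7 in KO clones, and the stimulated ones were not, at 126 to 154 against 289 to 337 CPM. The stress response list had medians of 1.04 and 0.20, with 1 gene called as different, and the list medians themselves were not tested.

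Nampt rose less in KO clones, by 0.89 ± 0.11 against 2.52 ± 0.12 in WT clones (difference -1.64 ± 0.16, adjusted p = 0.017). WT clones went from 137, 119 and 228 CPM to 869, 797 and 1025 CPM, while KO clones ended at 316 to 356 CPM from similar medium levels. Tlr13 fell further in KO clones (difference -2.28 ± 0.33). Tifa, an adaptor of TRAF6, was at 13.9, 9.47 and 19.6 CPM in medium and 12.5, 11.8 and 17.9 CPM under stimulation in KO clones (0.01 ± 0.13), and rose by 1.63 ± 0.13 in WT clones. Stx3, a membrane fusion gene, rose by 1.26 ± 0.12 in KO and 2.97 ± 0.12 in WT clones. Nos2, Tnf, Il6, Il1b and Csf1r were not called as different, with KO and WT fold changes of 11.10 and 10.69 for Nos2, 4.08 and 3.84 for Tnf and -2.39 and -1.87 for Csf1r.

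**Figure D4:**
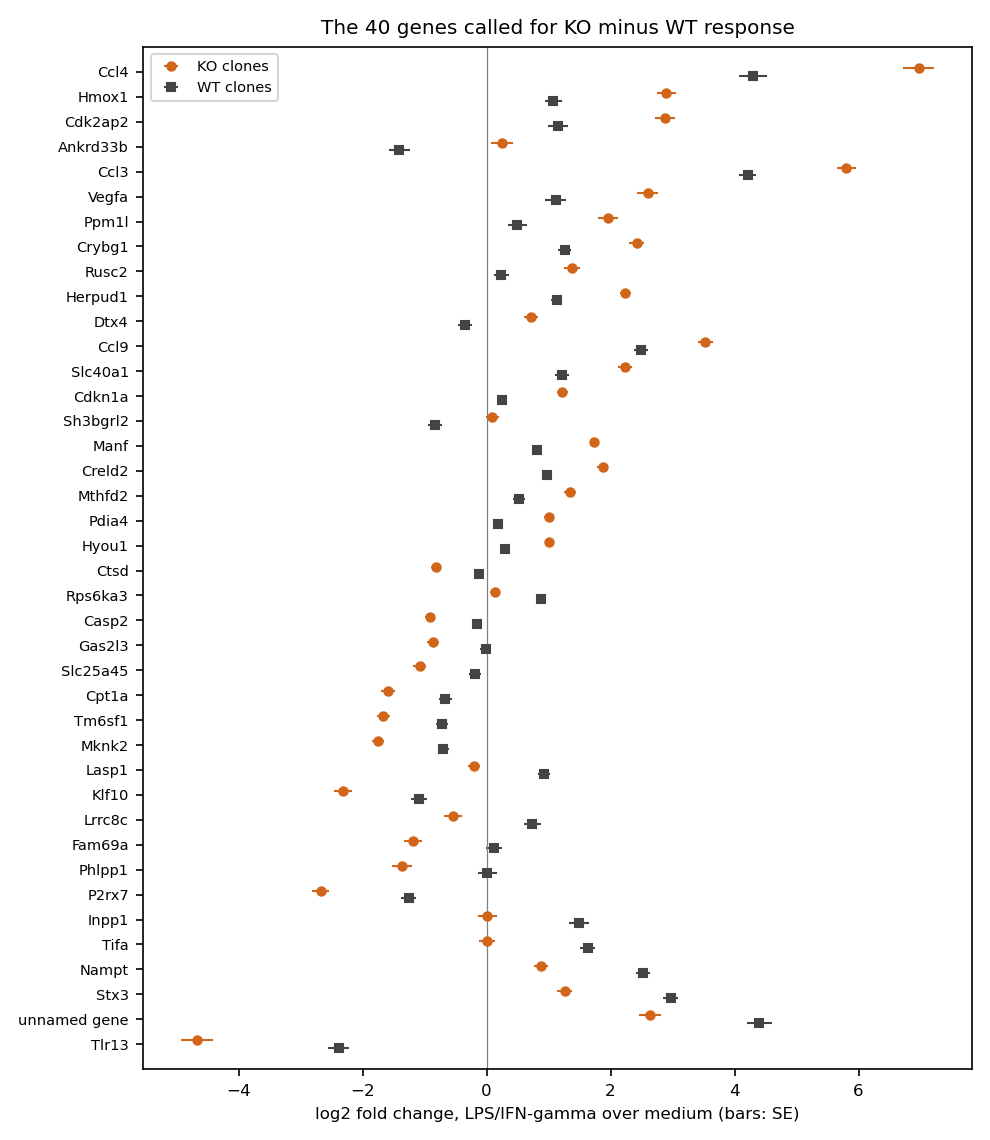
Log2 fold change ± SE under LPS/IFN-gamma in KO clones (circles) and WT clones (squares) for the 40 genes called for a difference between the responses, ordered by that difference. Ccl4 is at the top with the largest excess in KO clones and Tlr13 at the bottom with the largest deficit.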

How the data were processed

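The authors deposited raw counts per Ensembl gene for 12 libraries of total RNA, 12483 genes in all, and every listed gene reached 5 counts in 2 or more libraries. Builds mm10 and GRCm38 and the tool DESeq2 are named per the submitters' processing notes, while aligner, counter and strand setting were not given in the sources used here. Matching Ensembl IDs to the GENCODE annotation of GRCm38 named 12305 genes and left 178 unnamed. Library totals give the depth, and p-values measure only the spread between these clones.

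Counts were fitted with edgeR 4.0.16 (R 4.3.3, limma 3.58.1) after filterByExpr, which left out 252 genes, with TMM factors, robust quasi-likelihood dispersion, a term for each of the 6 clones and 1 stimulation effect per genotype (4 residual degrees of freedom, common coefficient of variation 11.73%). glmTreat tested a fold of 1.5. Standard errors are the fold change over the root of F, and per-clone values use a prior count of 0.5. The pairing by clone comes from the labels, and same-clone deviations correlated at 0.281, 0.252 and 0.476 for KO and 0.611 to 0.696 for WT clones. Across KO clones, 1A medium with 1B stimulated gave 0.224 and 1B with 1A 0.153, while pairs with clone 2 gave -0.366 to -0.293.

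Alternatives were no clone terms, KO libraries alone, 1A and 1B summed, other size factors, other filters, DESeq2 1.42.0, no robust step and each clone left out. The lists of genes and the members were chosen with earlier results of these data known. Named genes were the largest changes, up to 3 called members of each list and any member of lists of up to 15, the largest gains, losses and switches, the genes of most and least spread between clones, the largest differences from WT, and 12 genes fixed by name. Promoter windows came from RefSeq GRCm38.p6, 1 per gene, nearest the annotated 5′ end.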

Additional observations from a re-analysis of the deposited data

Results flagged for a closer look

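The difference between the KO and WT responses, tested as an interaction in edgeR, was called for 40 genes, each with an adjusted p below 0.05. Among the named ones, the log2 response of KO clones exceeded that of WT clones by 2.68 for Ccl4, 1.82 for Hmox1, 1.73 for Cdk2ap2, 1.66 for Ankrd33b, 1.59 for Ccl3 and 1.49 for Vegfa. It also exceeded it by 1.46 for Ppm1l, 1.16 for Crybg1, 1.11 for Herpud1, 1.02 for Slc40a1 and 0.90 for Creld2. The KO minus WT difference was -2.28 for Tlr13, -1.71 for Stx3, -1.64 for Nampt, -1.62 for Tifa, -1.48 for Inpp1, -1.42 for P2rx7, -1.38 for Phlpp1 and -1.31 for Fam69a, which shares 33% of its exon length with another gene. With 1A and 1B summed edgeR called none of the 40.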

How the results depend on the processing

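The count of genes called in the KO response stayed within 1.5 times of 8082 in every alternative run, at 6638 without the replicate block (without the pairing by clone), 7079 with 1A and 1B summed, 7156 in DESeq2, 8576 under library totals and 6735 to 8339 with a clone left out. Library totals moved the share of higher among called genes from 48.6% to 25.4%, and beyond 1.5-fold from 45.4% to 24%. The count for KO minus WT did not hold: from 40 it went to 0 without the replicate block (611 genes at an unadjusted p below 0.05), 0 with 1A and 1B summed (965) and 206 in DESeq2, and leaving out a clone gave 0 to 198, namely 0 without KO 1A, 1 without KO 1B, 0 without KO 2, 92 without WT 1, 36 without WT 2 and 198 without WT 3. The cause was not tested. Clone 2 against 1A and 1B gave 0 calls in each of the 12 alternatives run for it, which left out the fit without the block and that of KO libraries alone, with 120 to 606 genes at an unadjusted p below 0.05. Of 272 named genes called in the KO response, 230 kept call and direction in every alternative in which they were tested. Under library totals 3 reversed, Hspd1 to -0.01, Hspa4 to -0.11 and Eef1a1 to -0.07. Without the replicate block 29 lost their call, among them Slc40a1 (adjusted p = 0.1), Idh2 (0.14), Blnk (0.27), Ciita (0.11), Ahnak (0.059) and S1pr1 (0.056).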
